A study of Mus musculus with 6 samples.

Results

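Tubulins, kinesins, cytoplasmic dyneins and dynactin build the microtubule tracks of a cell and the motors that move along them. They were described here in pancreatic islets of mice with a deletion, labelled as one in beta cells, of Ythdc1, which encodes a nuclear protein that binds methylated adenosine in RNA. Members were chosen by name: every protein-coding gene of the expression table whose symbol begins with that of a tubulin, a kinesin, a kinesin light chain, a cytoplasmic dynein subunit or a dynactin subunit. The rule found 84 genes of the 54532 in the table, 22046 of which are protein-coding. They comprise 7 alpha, 8 beta and 4 gamma, delta or epsilon tubulins, 11 kinesins of cell division, 17 transport kinesins and light chains, 14 other kinesins, 5 chains of dynein 1, 2 chains of dynein 2, 9 dynein light chains and 6 dynactin subunits. The remaining gene, Kif1bp, encodes a kinesin-binding protein and not a kinesin.

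The libraries were poly(A) RNA of whole islets from 7-week-old mice, 3 labelled Ythdc1flox/flox (control) and 3 labelled Ythdc1-βKO (bKO). The alleles that the bKO mice carry, the Cre line and its promoter are not given in the sources used here, and the description fields of bKO replicates 2 and 3 write Ythdc2-βKO and Ythdc3-βKO. The labels call the 3 libraries of a group independent biological replicates and do not say whether islets of several animals were pooled.

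Ythdc1 stood at 5.76, 6.46 and 6.18 FPKM (fragments per kilobase of gene, scaled to library size, a level per gene length) in the control libraries. The bKO libraries had 3.81, 3.79 and 3.87 FPKM, a ratio of 0.624 and a log2 fold change of -0.56 (adjusted p = 0.00139). Fold changes here are bKO minus control on the log2(FPKM + 1) scale, which understates the change of low genes, and adjusted p-values are limma's with Benjamini-Hochberg adjustment over all genes tested, called at 0.05. Libraries held 16863329 to 18240339 reads. The islet hormone genes Ins2, Gcg and Sst reached at least 82380, 15760 and 4452 FPKM in every library. Islet cell markers differed between the groups. Of 8 beta cell genes 5 fell, Ins2 among them, and 1 rose, with sums of 201500 to 223200 FPKM in control and 131100 to 140300 in bKO. Of 4 delta and PP cell genes 2 rose (sums of 9796 to 11990 and 16230 to 19270 FPKM). Of 7 duct genes 5 were tested and Spp1 alone rose, with sums over the whole list of 52.2 to 57.8 and 116 to 129 FPKM. The sums of 6 alpha cell genes overlapped. The part of these markers' cells in the values below was not tested. The values come from whole islets, so for every gene below, fewer cells of a type and less RNA per cell cannot be told apart.

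As background, microtubules are hollow polymers of alpha and beta tubulin with a fast-growing plus end, nucleated by gamma tubulin. Most kinesins walk towards the plus end and carry vesicles or organelles, a subset works only while the mitotic spindle is being built and the cell divides, and cytoplasmic dynein with its activator dynactin walks towards the minus end. In beta cells the conventional kinesin Kif5b is known for moving insulin granules, and the microtubule network regulates how many granules reach the plasma membrane.

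For 9 of the 11 kinesins of cell division every bKO library was below every control library. Of the 6 tested, 1 was called. Ranges did not overlap, in either direction, for 9 of the 17 transport genes. Of those 17, 13 did not pass the test, and neither did any dynactin subunit. A few named members of other families moved, with Tubb3 and Kif5a higher and Kif11, Kif1b and Dynll2 lower. Of the 84 genes, 68 passed the filter on low values (at least 0.5 FPKM in at least 3 libraries), 3 of them, Kif18b, Kif20b and Kif23, through the control libraries alone. Of these 68, 7 rose and 8 fell, and 53 did not pass the test. Over all 15717 genes tested, 20.3% were called, 8.96% higher and 11.4% lower, so the members' share was near that of the whole table. The control and bKO ranges did not overlap for 34 of the 68, where the same held for 40.1% of all genes tested. The median log2 fold change was -0.04 over the members and -0.01 over all genes tested.

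The split into higher and lower rests on the scaling. The deposited FPKM carry size factors of 0.924 to 0.988 in control and 1.04 to 1.10 in bKO libraries. With scaling by total reads instead, the median over all genes tested shifted from -0.01 to 0.13, 18 members were higher and 3 lower, and the whole table had 23.4% higher and 4.69% lower. All 7 members that rose were also called higher on that scale, and 3 of the 8 that fell, Kif11, Kif1b and Dynll2, were also called lower. Kif11, Kif1b, Dynll2, Kif5a and Tubb3 were called in the deposited scaling and in each of the 14 alternatives. The count of 15 called members went to 8 without bKO replicate 1, and the 7 that rose went to 2 without bKO replicate 1, 3 without bKO replicate 2 and 4 without bKO replicate 3 or control replicate 1 or 3.

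**Figure D1:**
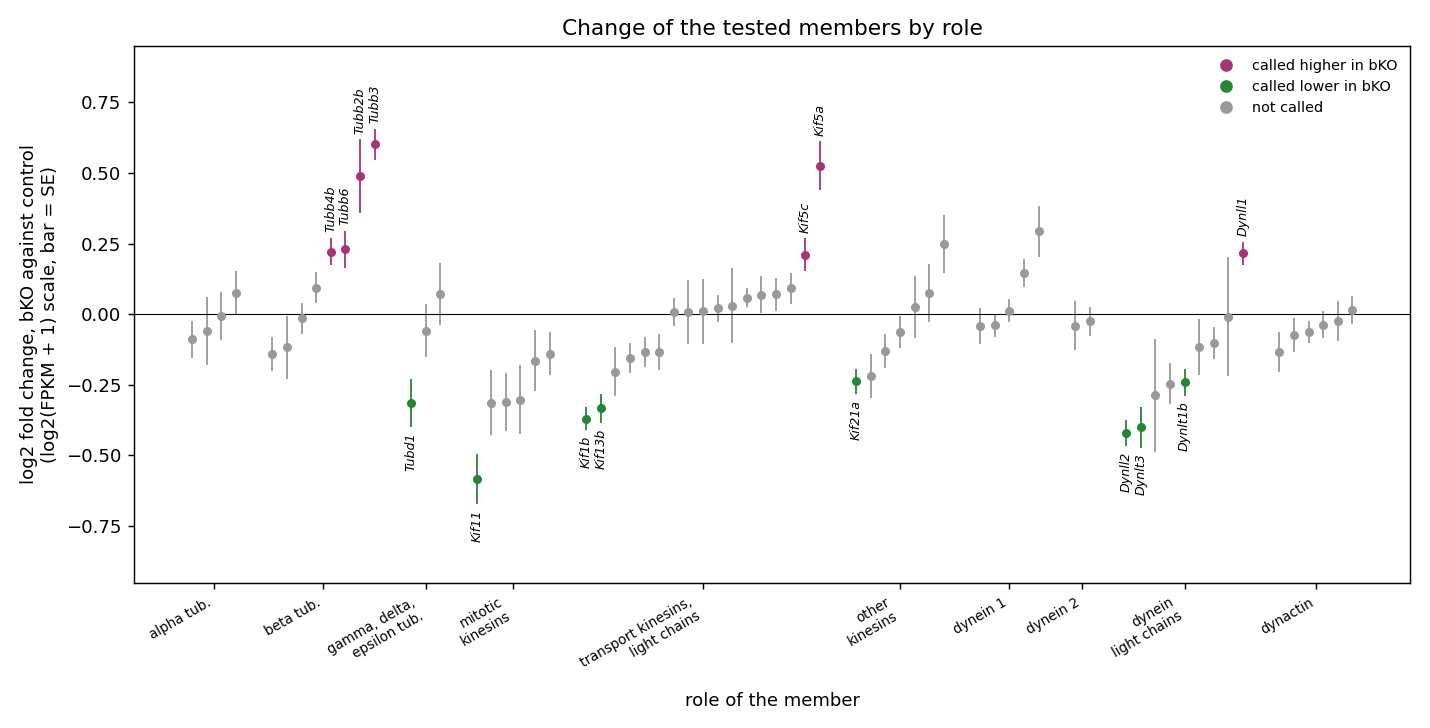
Log2 fold change (bKO minus control, log2(FPKM + 1) scale) of the tested members that have a role, 1 point per gene, with bars for the SE and called genes coloured and named. Of the 6 kinesins of cell division that were tested, all below 0, 3 (Kif18b, Kif20b and Kif23) passed the filter through control alone and could only lie there. Kif11 is the one called.

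Kinesins of cell division were examined first. For 9 of the 11 genes every bKO library was below every control library, where 40.1% of all genes tested had no overlap in either direction. Of the 6 tested, Kif18b, Kif20b and Kif23 passed the filter through the control libraries alone, so that they had to be lower, and Kif11, Kif20a and Kif22 passed in both groups. The summed level of the 11 genes was 10.9, 9.42 and 8.92 FPKM in control against 6.09, 6.53 and 6.40 in bKO. All were low genes: the sum rests on 2620 reads over the 3 control libraries and 1947 over the 3 bKO libraries. Over all 11, tested or not, the median log2 ratio of mean FPKM was -0.63, compared with 0.01 over the 17 transport genes. That contrast between both classes is a description, and no test was made of it. Only Kif11 passed the test.

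The start regions of these kinesins are shown because most hold the same short element. The cell cycle homology region, CHR (searched as TTTGAA), and the CCAAT box (searched as CCAAT) are known from genes transcribed late in the cell cycle, and were searched on both strands of windows from 250 bases before to 50 after the start (RefSeq, GRCm38.p6). A window was found for 65 of the 84 genes. The lines below run 5′ to 3′ in the sense of the gene from 150 bases before to 30 after the start, and capitals mark the motif letters on either strand.
Kif11, chr19:37376232-37376411, plus strand: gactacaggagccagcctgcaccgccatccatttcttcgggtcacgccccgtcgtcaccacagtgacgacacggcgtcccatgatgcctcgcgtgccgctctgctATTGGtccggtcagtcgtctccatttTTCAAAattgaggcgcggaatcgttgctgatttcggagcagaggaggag
Kif22, chr7:127042391-127042570, minus strand: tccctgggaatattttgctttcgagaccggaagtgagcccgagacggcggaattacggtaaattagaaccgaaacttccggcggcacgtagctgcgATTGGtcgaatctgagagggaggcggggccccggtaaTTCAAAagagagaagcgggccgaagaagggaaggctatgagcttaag
Kif23, chr9:61946770-61946949, minus strand: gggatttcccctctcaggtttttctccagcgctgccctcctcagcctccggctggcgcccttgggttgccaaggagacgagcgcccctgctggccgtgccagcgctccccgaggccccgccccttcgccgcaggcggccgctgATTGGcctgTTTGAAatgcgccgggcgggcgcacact
Kif20b, chr19:34922208-34922387, plus strand: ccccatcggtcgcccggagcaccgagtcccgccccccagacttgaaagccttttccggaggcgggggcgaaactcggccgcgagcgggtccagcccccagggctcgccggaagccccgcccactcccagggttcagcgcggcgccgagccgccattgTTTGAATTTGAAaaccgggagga
Kif15, chr9:122950931-122951110, plus strand: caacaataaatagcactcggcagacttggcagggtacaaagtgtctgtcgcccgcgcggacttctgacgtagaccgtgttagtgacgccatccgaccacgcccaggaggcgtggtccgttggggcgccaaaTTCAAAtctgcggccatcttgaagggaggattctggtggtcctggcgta
In Kif11 and Kif22 the CHR letters lie at positions -19 and -17 relative to the start, on the opposite strand, each with a CCAAT box upstream at -45 and -54. Kif23 holds the CHR at position 3 with a CCAAT box at -7. Kif20b holds the CHR letters back to back, at 8 and 14, without a CCAAT box in its window. CHR letters were present in 9 of the 10 windows of this class (90%), all but that of Kif18a, compared with 17.9% of 32851 windows of all genes and 6.67% of the 15 windows of transport kinesins and light chains. In Kif14 and Kif2c they lie further upstream, at -228 and -103. The windows of Kif14, Kif2c and Kif4 lie inside the deposited span of the gene, so the starts used for them are not its first base. Windows with both elements numbered 6 of 10 (60%) in this class, 6.95% of all windows and 0 of 15 in the transport class. Kif15, whose CHR stands at -19, is shown as the member that holds the letters and had equal levels in the groups. A match is a description of the letters and no evidence that a factor binds there.

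Kif11, the motor that pushes spindle poles apart (chromosome 19, 37376403 to 37421859), measured 2.22, 1.87 and 1.81 FPKM in control. In bKO it measured 0.918, 1.04 and 0.965 FPKM. The groups did not overlap, and the mean went from 1.96 ± 0.222 to 0.975 ± 0.0623 (SD, n = 3 each), a ratio of 0.497 and a log2 fold change of -0.58 ± 0.0896 (SE; limma, adjusted p = 0.00602).

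Kif20b and Kif23, both needed for the final separation of daughter cells, did not pass the test. Kif20b measured 0.812, 0.726 and 0.931 FPKM in control and 0.486, 0.5 and 0.42 in bKO (log2 fold change -0.31, adjusted p = 0.0757 by limma). Kif23 measured 0.755, 0.536 and 0.758 FPKM in control and 0.428, 0.307 and 0.322 in bKO (-0.31, adjusted p = 0.101 by limma). Neither gene overlapped between groups, and a fit of the recovered reads with voom called both lower, with log2 fold changes of -0.80 and -0.93 on the scale of reads. Because they passed the filter on low values through the control libraries alone, only a lower level could have been seen for them. Kif20a, another kinesin of late division, measured 2.11, 1.71 and 1.43 FPKM in control and 1.001, 1.29 and 1.38 in bKO (-0.30, adjusted p = 0.13 by limma), with the highest bKO library just below the lowest control library; 29.3% of its exonic length overlaps Cdc23.

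The remaining members of this class were at or near the filter, apart from Kif22. Kif2c, which takes microtubules apart at centromeres, was at 0.769, 0.572 and 0.34 FPKM in control and 0.0955, 0.177 and 0.136 in bKO. Kif14, which acts in cytokinesis, was at 0.228, 0.185 and 0.197 FPKM in control and 0.111, 0.0746 and 0.0783 in bKO. Both were under the filter and untested, with ratios of 0.243 and 0.432, and the ranges did not overlap. Kif4, Kif18b and Kif22, which act on chromosomes and on spindle microtubules, had ratios of 0.646, 0.689 and 0.864 and no overlap. Kif15 and Kif18a overlapped, and Kif15 had a mean of 0.346 FPKM in both groups.

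Other genes of division moved the same way. Of 22 listed spindle and division genes outside the name rule, all tested, 18 fell and 0 rose, with a median log2 fold change of -0.55, and 3 of the 22 passed the filter through the control libraries alone. Leaving out 1 library left 10 to 14 of them called lower, with 10 without control replicate 1 and 11 without bKO replicate 1. Among them, Mki67, a marker of cycling cells, went from 4.20 to 1.94 FPKM (-0.82, adjusted p = 0.00133). The spindle assembly factor Tpx2 went from 2.16 to 0.656 (-0.93, adjusted p = 0.00225) and cyclin Ccnb2 from 3.57 to 1.197 (-1.06, adjusted p = 0.00279), all by limma. The list of 14 proliferation markers shares most of its genes with the 22 above. Its summed level was 45.5 to 52.5 FPKM in control and 32.5 to 34.7 in bKO. Of the 14, 8 were called lower and 6 were not called, Mcm2 and Pcna among these. The 8 became 4 without control replicate 1 and 5 without control replicate 2 or bKO replicate 1 or 2. Markers of immune cells, which can also divide, were lower as well: 5 of 13 macrophage genes fell and none rose, with sums of 203 to 224 FPKM in control and 119 to 145 in bKO. The part of these cells in the levels of the dividing-cell kinesins was not tested.

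**Figure D2:**
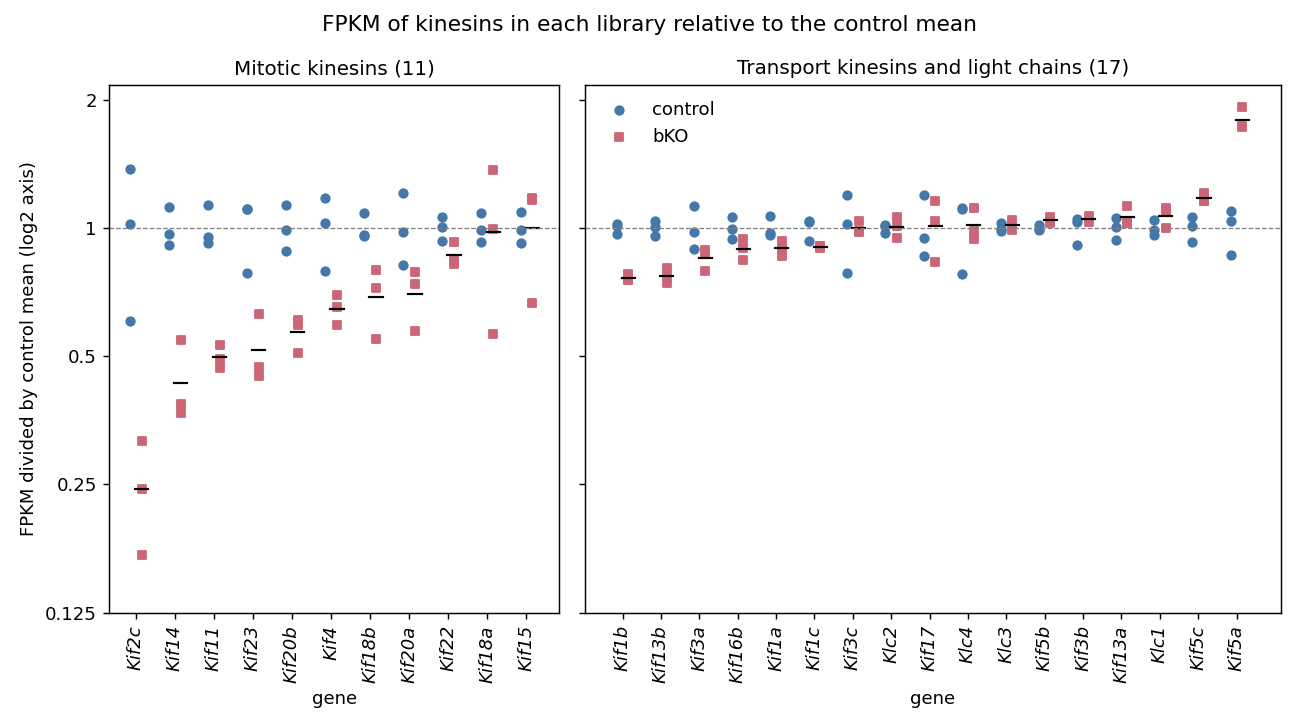
FPKM of each library divided by the gene's control mean, on a log2 axis, for the 11 kinesins of cell division (left) and the 17 transport kinesins and light chains (right). Circles are control and squares bKO libraries, and lines mark the bKO mean. For 9 of the 11 division genes the 3 bKO points lie below the 3 control points, and Kif15 and Kif18a overlap.

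Transport kinesins kept their summed level: 244, 241 and 236 FPKM in control and 233, 238 and 232 in bKO. All 17 were tested, 2 rose, 2 fell and 13 did not pass. The ranges did not overlap, in either direction, for 9 of the 17, where the same held for 40.1% of all genes tested. With scaling by total reads 7 were higher and 1 lower, where 23.4% of all genes tested were higher and 4.69% lower. The transport median was then 0.17, where all genes had 0.13.

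The conventional kinesin heavy chains Kif5a, Kif5b and Kif5c differed among themselves. Kif5a, the form known mainly from neurons (chromosome 10, 127225696 to 127263348), measured 1.27, 1.34 and 1.06 FPKM in control and 2.13, 2.35 and 2.12 in bKO. Every bKO library was above every control library, and the gene rose from 1.23 ± 0.148 to 2.20 ± 0.131 FPKM (SD, n = 3 each), a ratio of 1.80 and a log2 fold change of 0.53 ± 0.0858 (SE; limma, adjusted p = 0.00748). Kif5c, also a neuronal form, measured 7.94, 9.09 and 8.63 FPKM in control and 9.91, 10.3 and 9.90 in bKO (0.21 ± 0.0576, adjusted p = 0.0437 by limma). Its call was lost on leaving out control replicate 1 or 3 or any bKO replicate (adjusted p = 0.0771 to 0.125).

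Kif5b, the granule motor and the most abundant of the Kif5 genes, measured 55.6, 56.0 and 57.2 FPKM in control and 57.8, 58.3 and 59.8 in bKO. The groups did not overlap, but the difference was small (0.06, adjusted p = 0.266 by limma), and it passed only with total-read scaling (0.23, adjusted p = 0.0055) and with quantile normalization. Its partners, the light chains Klc1 to Klc4, which link the motor to cargo, had means of 25.4, 14.5, 7.67 and 11.8 FPKM in control and 27.1, 14.6, 7.79 and 11.99 in bKO, and none was called.

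Among the Kif1 and Kif13 motors, which carry vesicles and mitochondria, Kif1b (chromosome 4, 149176319 to 149307693) measured 21.3, 21.1 and 20.2 FPKM in control and 15.8, 15.8 and 16.2 in bKO. It fell from 20.9 ± 0.586 to 15.9 ± 0.274 FPKM with no overlap, a log2 fold change of -0.37 ± 0.04 (limma, adjusted p = 0.00171). Kif13b (chromosome 14, 64647265 to 64809617) measured 9.84, 9.35 and 10.1 FPKM in control and 7.49, 7.89 and 7.26 in bKO. It fell with no overlap (-0.33 ± 0.0528, adjusted p = 0.00671 by limma), though with total-read scaling its adjusted p was 0.0503. Kif1a, the dense-core vesicle motor of neurons and endocrine cells, measured 40.3, 36.7 and 36.3 FPKM in control and 33.7, 35.3 and 32.4 in bKO. Kif1a was lower in every bKO library without passing the test (-0.15, adjusted p = 0.0917 by limma). Voom on the recovered reads called it lower (-0.16, adjusted p = 0.0125), while with total-read scaling its log2 fold change was 0.02 (adjusted p = 0.807).

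The 14 other kinesins held the most abundant of all kinesins in these islets, Kif12, at 70.0, 74.6 and 73.8 FPKM in control and 75.6, 66.8 and 66.7 in bKO (-0.06, adjusted p = 0.489 by limma), with overlapping ranges. Of the 7 tested, 0 rose and 1 fell. That was Kif21a, a kinesin that restrains microtubule growth at the cell edge (chromosome 15, 90933276 to 91049948), at 25.6, 24.5 and 26.9 FPKM in control and 21.4, 21.9 and 21.5 in bKO (-0.24 ± 0.0444, adjusted p = 0.0118 by limma), with no overlap. The call on Kif21a was lost with total-read scaling (adjusted p = 0.319). The other 7 were under the filter, and Kif2b had 0 reads in all 6 libraries.

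No alpha tubulin was called (0 of 4 tested), and Tuba1a, the most abundant, measured 57.7, 52.3 and 63.2 FPKM in control and 62.5, 57.3 and 52.5 in bKO (-0.01, adjusted p = 0.967 by limma). Tuba1b measured 34.2, 30.5 and 34.4 FPKM in control and 28.8, 32.5 and 31.6 in bKO, again with overlap (adjusted p = 0.381 by limma). Of the 8 beta tubulins 4 rose, 0 fell and 4 were not called. With total-read scaling 6 were higher, where 23.4% of all genes tested were. With any 1 library left out 1 or 2 were higher (1 without bKO replicate 1 or 2, and 2 without any other). The summed beta level was 155, 141 and 144 FPKM in control and 160, 163 and 161 in bKO.

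Tubb3, the beta tubulin of neurons and a widely used neuronal marker (chromosome 8, 123411424 to 123422015), measured 12.4, 11.6 and 11.3 FPKM in control and 17.7, 19.5 and 18.04 in bKO. The ranges were well apart, and it rose from 11.8 ± 0.577 to 18.4 ± 0.952 FPKM, a ratio of 1.56 and a log2 fold change of 0.60 ± 0.0553 (limma, adjusted p = 0.000914).

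Tubb4b, a broadly expressed beta tubulin and the most abundant one here, measured 62.0, 55.6 and 57.9 FPKM in control and 66.9, 70.5 and 67.6 in bKO (0.22 ± 0.0489, adjusted p = 0.0214 by limma), with no overlap. Tubb2b, best known from migrating neurons, measured 1.11, 0.936 and 1.26 FPKM in control and 2.50, 1.80 and 1.60 in bKO (0.49 ± 0.131, adjusted p = 0.0417 by limma). Tubb6 measured 4.56, 5.29 and 4.57 FPKM in control and 5.75, 5.78 and 5.85 in bKO (0.23 ± 0.0651, adjusted p = 0.0495 by limma). These 3 calls were close to the threshold. The call on Tubb4b ended on leaving out any bKO library or control replicate 2 (adjusted p = 0.0538 to 0.0742). That on Tubb2b ended on leaving out any control library or bKO replicate 1 or 2 (adjusted p = 0.0556 to 0.108), and that on Tubb6 on leaving out any bKO library or control replicate 1 or 3 (adjusted p = 0.114 to 0.141).

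Tubb5, a beta tubulin common in dividing cells, measured 34.9, 32.3 and 30.6 FPKM in control and 32.1, 31.5 and 33.1 in bKO (-0.02, adjusted p = 0.871 by limma). Tubb2a was 31.9 ± 2.54 FPKM in control and 28.8 ± 0.816 in bKO (adjusted p = 0.154 by limma). Near-identical copies may have shared reads: of 100-base stretches of transcript, 36.9% of Tubb2a, 26% of Tubb2b, 65.1% of Tuba1a and 62.1% of Tuba1b also occur in another gene. Tubb4b shares 21%, with pseudogenes, and 5.8% of its exonic length overlaps Fam166a, so its level is uncertain to that extent. Other genes overlap 26.2% of the exonic length of Tuba1a and 27.4% of that of Tuba1b, Gm49450 on the same strand among them.

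Tubg1, the gamma tubulin that starts new microtubules, measured 12.5, 9.65 and 10.1 FPKM in control and 10.7, 9.76 and 10.2 in bKO (adjusted p = 0.70 by limma). Tubd1, a centriolar tubulin, measured 3.75, 3.20 and 3.67 FPKM in control and 2.54, 2.96 and 2.46 in bKO (-0.31 ± 0.0842, adjusted p = 0.0413 by limma). Although its ranges did not overlap, the call on Tubd1 did not hold on leaving out replicate 1 or 3 of either group (adjusted p = 0.0982 to 0.125).

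Markers of neurons, Schwann cells and vessels are given beside Tubb3, Tubb2b and Kif5a. Of 10 listed neuron markers 5 were tested, 2 rose and 3 were not called, and the median log2 fold change of these 5 was -0.02. Over all 10, tested or not, 7 had a ratio above 1 and 3 below, with a median log2 ratio of mean FPKM of 0.315. The ranges did not overlap, in either direction, for 7 of the 10. With no filter 5 were called higher and 0 lower. The 5 untested markers were under 1 FPKM in every library. Snap25 was 22.2 FPKM in control and 21.9 in bKO, Th 20.2 and 19.98, and Elavl4 7.03 and 6.08 (adjusted p = 0.0629 by limma). Prph, a neuronal filament, went from 0.0303 to 3.42 FPKM (2.08, adjusted p = 0.00052 by limma) and Nefm, another filament gene, from 3.72 to 5.07 (0.37, adjusted p = 0.012 by limma). Prph passed the filter through the bKO libraries alone, and without any 1 of these it was not tested. Nefl and Chat were at 0 in every control library, and the list's sum was 52.6 to 55.7 FPKM in control and 56.5 to 59.9 in bKO. Of 6 Schwann cell markers 3 rose, with sums of 4.94 to 6.88 and 7.68 to 9.75 FPKM. These 3, Ngfr, Foxd3 and Cdh19, passed the filter through the bKO libraries alone, so that they had to be higher. Without any 1 of the bKO libraries they were not tested, and no Schwann cell marker was called. Without control replicate 1 or 2 the count was 1. Of 10 endothelial markers 6 rose, with sums of 164 to 188 and 209 to 215 FPKM, and that count went to 2 without bKO replicate 3, 3 without bKO replicate 2 or control replicate 2, and 4 without replicate 1 of either group. Their part in the tubulin and kinesin levels was not tested.

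Among motors of the minus end, the light chains of cytoplasmic dynein held the called genes. Of 9 light chain genes 1 rose and 3 fell (median -0.24), and their summed level was 303, 307 and 299.5 FPKM in control and 236, 247 and 247 in bKO. With total-read scaling 1 was higher and 1 lower. The LC8 light chains Dynll1 and Dynll2, dimers that dynein and many other proteins share, went in opposite directions.

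Dynll2 (chromosome 11, 87979525 to 87987533), the most abundant of all members, measured 171, 179 and 168 FPKM in control and 122, 133 and 132 in bKO. It fell from 173 ± 5.67 to 129 ± 5.64 FPKM, a ratio of 0.747 and a log2 fold change of -0.42 ± 0.0461 (limma, adjusted p = 0.00182). Dynll1 (chromosome 5, 115297110 to 115300999) measured 8.54, 8.55 and 8.63 FPKM in control and 10.3, 10.1 and 10.02 in bKO. Ranges overlapped for neither gene, and Dynll1 rose by 0.22 ± 0.0411 (limma, adjusted p = 0.0128), a call lost without bKO replicate 1 (adjusted p = 0.0545).

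Of the Tctex light chains, which link dynein to cargo, Dynlt3 (chromosome X, 9654267 to 9663003) measured 33.5, 31.6 and 35.7 FPKM in control and 23.2, 25.1 and 27.4 in bKO. It fell with no overlap (-0.40 ± 0.0713, adjusted p = 0.00995 by limma), and with total-read scaling its adjusted p was 0.0543. Dynlt1b measured 28.2, 27.9 and 29.7 FPKM in control and 23.4, 23.4 and 25.3 in bKO (-0.24 ± 0.0479, adjusted p = 0.0148 by limma). Its call was lost without bKO replicate 1 or 2 (adjusted p = 0.0555 to 0.0578), and 82% of its 100-base stretches are shared with other genes, so its reads are uncertain. The roadblock chain Dynlrb1, another subunit that joins the motor, was 49.8 FPKM in control and 46.3 in bKO and was not called (adjusted p = 0.248 by limma).

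The motor itself did not pass the test. With total-read scaling 3 of the 5 chains of dynein 1 were higher, where 23.4% of all genes tested were. Voom called 2 of the chains higher and quantile normalization 1. Dync1h1, the heavy chain that makes force, measured 30.6, 31.6 and 29.9 FPKM in control and 30.2, 32.1 and 30.6 in bKO (0.01, adjusted p = 0.856 by limma), although with total-read scaling it was called higher (0.18, adjusted p = 0.0127). Dync1i1, the intermediate chain known from neurons, measured 1.18, 1.32 and 1.05 FPKM in control and 1.84, 1.54 and 1.65 in bKO without overlap (0.29, adjusted p = 0.0619 by limma). Dync1i1 was called higher with total-read scaling (0.40, adjusted p = 0.0202) and just passed with voom (adjusted p = 0.04985). Dync1i2, its widespread paralog, was 13.5 FPKM in control and 13.1 in bKO.

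None of the 2 dynein 2 chains and 6 dynactin subunits was called: Dync2li1 of ciliary dynein was 19.0 and 18.5 FPKM, and Dctn1, the largest dynactin subunit, was 26.5 ± 0.896 and 25.2 ± 0.172 FPKM (adjusted p = 0.289 by limma). Dctn3, the most abundant dynactin subunit, was 38.3 FPKM in control and 37.3 in bKO. Kif1bp, outside all families, was 12.1 and 10.4 FPKM (adjusted p = 0.0982 by limma).

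**Figure D3:**
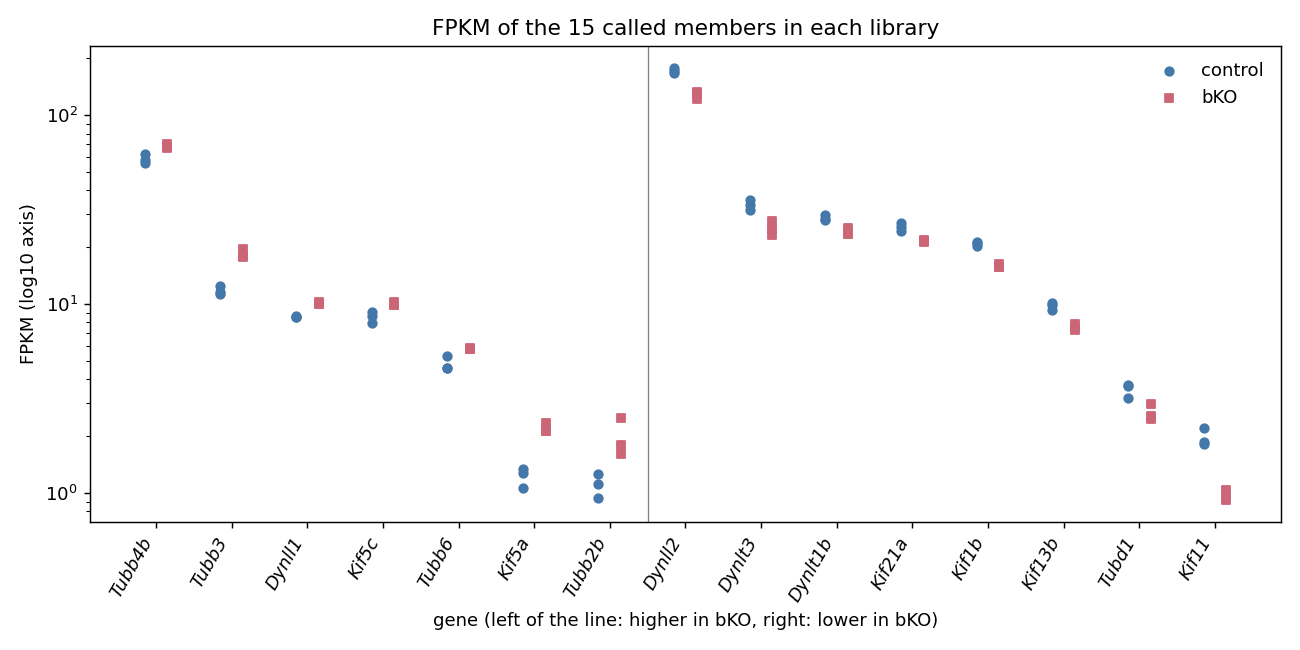
FPKM of each library for the 15 members called, on a log10 axis, with circles for control and squares for bKO and the genes that rose on the left. Tubb3 and Kif5a rise without overlap, and Dynll2, Kif1b and Kif11 fall without overlap.

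Shares within a set of paralogs do not depend on the scaling of a library. Tubb3 was 8.001%, 8.22% and 7.90% of the summed beta tubulin FPKM in control and 11.04%, 11.9% and 11.2% in bKO. Tubb4b went from a mean of 39.9% to 42.3%, while Tubb5 went from 22.2 ± 0.805% to 19.9 ± 0.625% and Tubb2a from 21.7 ± 0.648% to 17.8 ± 0.665%. Among beta tubulins, the shares of Tubb3 and Tubb4b were thus higher in bKO islets and those of Tubb5 and Tubb2a lower.

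Kif5a was 1.96%, 2.03% and 1.58% of the Kif5 sum in control and 3.05%, 3.31% and 2.95% in bKO, whereas Kif5b, which still made up most of it, went from 85.2% to 82.7%. Dynll1 was 4.75%, 4.56% and 4.90% of both LC8 genes in control and 7.75%, 7.05% and 7.08% in bKO. The deposited length of Dynll1, 3890 bases, covers its whole span, so intronic reads can be counted and the level of its share depends on that length. Kif1b was 35.6% of Kif1a and Kif1b together in control and 32.05% in bKO, without overlap. Alpha tubulins summed to 75.1 FPKM per 100 of beta in control and 67.0 in bKO. The share of Tuba1a among alpha tubulins, 52.4% and 53.0%, overlapped. These shares are descriptions and were not tested.

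**Figure D4:**
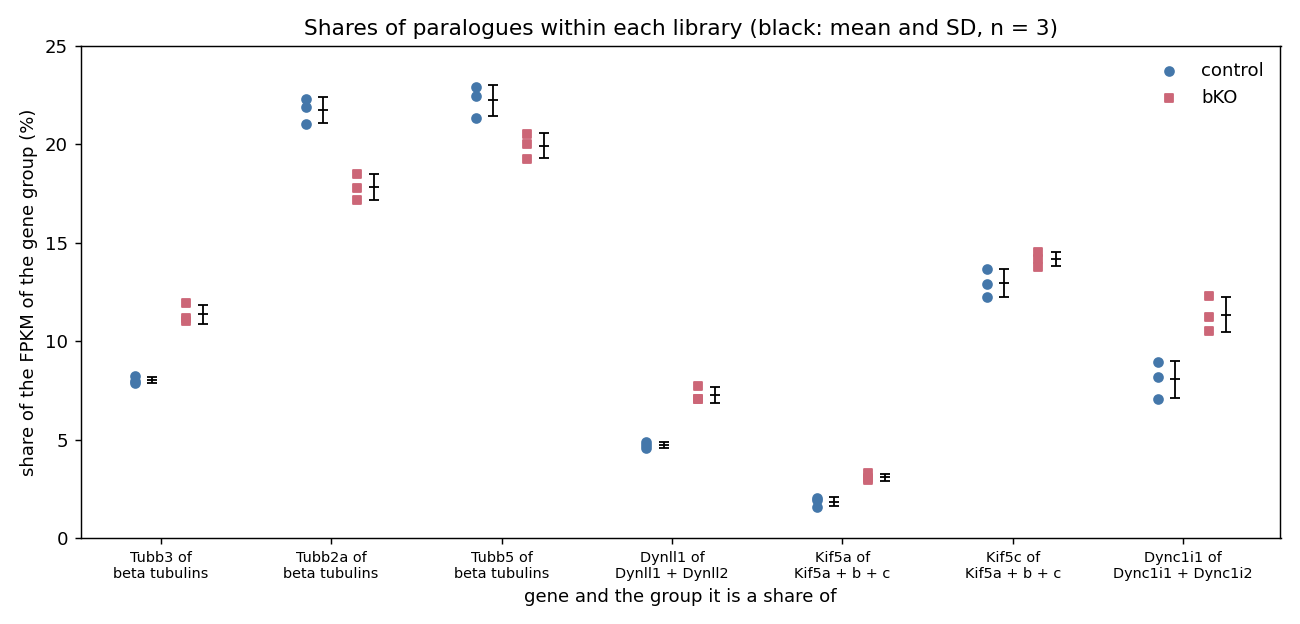
Share of a paralog in its set (percent of summed FPKM) for each library, with circles for control, squares for bKO and black bars for the mean and SD of 3 libraries. Tubb3, Kif5a and Dynll1 have higher and Tubb2a and Tubb5 lower shares in the 3 bKO libraries.

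Other microtubule genes, listed by role, moved in both directions. Of 26 tested microtubule-associated proteins 8 rose and 2 fell. Among the 8, Stmn2 and Dclk1 passed the filter through the bKO libraries alone and could only be higher. When any bKO replicate was left out these were not tested, and 5 of the 24 still tested rose. Map4 went from 4.93 to 7.11 FPKM (0.45, adjusted p = 0.00139 by limma), Mapt (tau) from 5.62 to 8.99 (0.59, adjusted p = 0.00148) and Dclk1, which passed the filter through the bKO libraries alone, from 0.261 to 1.45 (0.96, adjusted p = 0.00181). Map2 went from 22.6 to 18.1 FPKM (-0.31, adjusted p = 0.00328 by limma) and Stmn1, which sequesters tubulin, from 10.5 to 6.44 (-0.63, adjusted p = 0.00435).

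Of 24 tested adaptors and regulators of motors 2 rose and 2 fell, and with total-read scaling 10 were higher and 0 lower. On that scale 23.4% of all genes tested were higher and 4.69% lower. No member of the list was called without bKO replicate 1. The count was 1 higher and 0 lower without control replicate 1 or 2, and 1 higher and 1 lower without bKO replicate 2 or 3. Actr1b, of the dynactin filament, went from 30.9 to 36.5 FPKM (0.24, limma adjusted p = 0.0138, lost without bKO replicate 1 at 0.0504). Pafah1b1, the Lis1 regulator of dynein, went from 27.4 to 23.4 (-0.22, adjusted p = 0.0167 by limma). Leaving out replicate 1 of either group or control replicate 2 ended that call (adjusted p = 0.0518 to 0.0582). Of 24 tested genes that fold, modify or sever tubulin 2 rose and 4 fell, and with total-read scaling 8 were higher and 2 lower. With 1 library left out 0 or 1 rose (0 without control replicate 1 or bKO replicate 2) and 2 to 4 fell (2 without replicate 1 or 3 of either group). Hdac6, which deacetylates alpha tubulin, went from 36.8 to 25.6 FPKM (-0.51, adjusted p = 0.00491 by limma) and the folding cofactor Tbcd from 9.36 to 7.22 (-0.33, adjusted p = 0.00692).

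Of 11 partners of gamma tubulin 1 rose and 1 fell, the fall (Mzt1) being lost without replicate 1 or 2 of either group (adjusted p = 0.0546 to 0.0702). Tubgcp6, a subunit of the nucleating ring, went from 2.23 to 3.90 FPKM (0.60, adjusted p = 0.00296 by limma). Of 20 tested ciliary genes 1 rose and 3 fell, of which 1 fell without control replicate 1 or 3 and 2 without any other library; with total-read scaling 3 were higher and 1 lower. Dnah9, an axonemal dynein heavy chain of motile cilia, went from 1.34 to 3.73 FPKM (1.01, adjusted p = 0.000431 by limma), and the ciliary transport gene Ift81 from 12.9 to 9.42 (-0.41, adjusted p = 0.00241). Dnah9 is itself among 8 ciliated epithelium markers listed, of which 6 were tested and 2 rose.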

How the data were processed

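Poly(A) RNA of whole islets was sequenced as paired reads. Per the submitters' processing notes, the authors used HISAT2 2.0.5, featureCounts 1.5.0-p3, DESeq2 1.20.0 and CASAVA with GRCm38; the sources used here do not give their settings, strand included. Levels were deposited as FPKM. Each value times gene length and 1 factor per library gave a whole read within 0.01 for 100% of values above 0, and those factors are size factors, so the depth is known.

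The planned count test was not the main test because the deposited unit is FPKM, and the recovered reads entered an alternative fit (voom). For the main test limma 3.58.1 (R 4.3.3) with a mean-variance trend was fitted to log2(FPKM + 1), bKO against control, over the 15717 genes with at least 0.5 FPKM in at least 3 libraries, with Benjamini-Hochberg adjustment of the p-values. Same-group libraries differed beyond sampling noise (chi-square per degree of freedom 4.09 to 6.50), so none was merged. The 14 alternatives were total-read scaling, pseudocounts of 0.1 and 0.5, no filter, a filter at 1 FPKM, voom on recovered reads, quantile normalization, a replicate block and leaving out each library. Members and gene lists were chosen with earlier results of these data known. Genes were named if called, if at 50 FPKM or more, if the most abundant of a role, or from a set of well-known motors and tubulins, plus up to 3 called genes per list and direction. Some other members are named as examples, chosen after their values were seen. Figures were drawn with matplotlib 3.10.9, and other steps used pandas 2.3.3 and numpy 2.4.6 under Python 3.11.15. Positions are those of GRCm38 in the deposited table, and promoter windows are RefSeq's.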

Additional observations from a re-analysis of the deposited data

How the results depend on the processing

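Of the 15 members called, 9 were called with a replicate block and 8 to 13 when 1 library was left out, 8 being the count without bKO replicate 1. The 7 higher calls became 18 with total-read scaling and 9 with voom. They became 4 with no filter, 2 with the replicate block and 2 to 5 with 1 library left out. The 8 lower calls became 3 with total-read scaling, 12 with voom, 9 with quantile normalization and 6 to 8 with 1 library left out. Kinesins of cell division called lower numbered 1, and 3 with voom on recovered reads or with quantile normalization. Those 3 include Kif20b and Kif23, which passed the filter through the control libraries alone and could only be lower. The 2 transport kinesins called higher became 7 with total-read scaling and 3 with quantile normalization. They became 1 with no filter, 1 with the replicate block and 1 to 2 with 1 library left out. The 2 called lower became 1 with total-read scaling, and 3 with voom or without control replicate 3. The transport median changed sign, from 0.01 to -0.0494, without control replicate 3 (its range with 1 library left out was -0.0494 to 0.033), and Tubb5 went from -0.02 to 0.16 with total-read scaling. The causes were not tested. Same-numbered libraries did not deviate together (r of -0.052, -0.014 and -0.073). That gives no sign of pairing by replicate number and does not exclude it. Depth limits low genes: Kif14 and Kif2c rest on 51 and 33 reads over the 3 bKO libraries.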
